A study of Rattus norvegicus with 12 samples.

Results

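Whether HDAC1 changed the same genes by the same amount in resting and in TGFB1-treated fibroblasts was asked with the interaction of a 2 by 2 design: the HDAC1 effect with TGFB1 minus the HDAC1 effect in vehicle, on the log2 scale. All 12 libraries of the series entered it, 3 in each of 4 groups. The groups were NRK-49F cells, an established line of normal rat kidney fibroblasts, transfected with the empty vector pcDNA3.1 or with a plasmid for Flag-tagged human HDAC1, and each kept for 24 h in medium with 0.5% FBS as vehicle or with 2 ng/ml TGFB1 in the same medium. All groups therefore shared the transfection and the low serum, and the line is 1 cell type. Of 43360 genes in the count table, 14601 were tested and 10423 with a mean of at least 5 CPM (counts scaled to a common library size) were read. The labels do not say whether the replicates were separate cultures, so p-values measure only the spread between these libraries, which may be technical.

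HDAC1 takes acetyl groups off histone tails and other proteins, usually as the catalytic subunit of corepressor complexes. TGFB1 is a cytokine that acts through SMAD proteins and drives kidney fibroblasts towards matrix-producing myofibroblasts, and in serum-poor medium it can also alter their division. A gene that responds to both agents can show an HDAC1 effect that adds to that of TGFB1 on the log scale, shrinks or grows in its presence, or changes sign.

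4 libraries stood apart before any gene was read. On the second principal component, which held 14.14% of the variance, replicate 1 of the vehicle empty vector group lay at 37.6 and the HDAC1 libraries with TGFB1 lay at 24.58, 16.4 and 21.3, whereas the other 8 lay between -28.57 and -0.004205. The same 4 had the lowest summed levels of 28 brain and neuron markers (158 to 165 CPM against 223 to 286 CPM in the others) and of 32 heart markers (105 to 208 CPM against 300.2 to 643 CPM). Neither list marks the labelled cell. Of 12 fibroblast markers 10 were tested, with summed levels of 12482 to 25811 CPM that were mostly Fn1, Col1a1, Vim and Col1a2. Dcn, also tested, had only 168 raw counts over all libraries, and Lum and Thy1 were not among the tested genes with a symbol. Of 13 endothelial markers 7 were tested, with summed levels of 18.5 to 25.7 CPM, and 10 of 15 macrophage and leukocyte markers, Ptprc and Adgre1 included, were not among the tested genes with a symbol. The other 5 of these, mostly Cd14 and Cd74, summed to 151 to 267 CPM and were lower with HDAC1 in each treatment. Of 15 kidney tubule markers 4 were tested, with sums of 1175 to 1767 CPM that were mostly Krt8, while Cdh16, Lrp2 and Umod were not among the tested genes with a symbol. Library totals ran from 18397093 to 36652084 counts. Results are given with and without the vehicle empty vector replicate 1, hereafter the vehicle replicate 1.

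The difference of the HDAC1 effects was called for 57 of the 10423 genes (0.547%), 20 of them higher with TGFB1 than in vehicle (0.192%) and 37 lower (0.355%), with edgeR's quasi-likelihood test at an adjusted p under 0.05. By comparison, the HDAC1 effect itself was called for 1864 genes in vehicle (17.9%), of which 856 rose (8.21%) and 1008 fell (9.67%), and for 715 genes with TGFB1 (6.86%), of which 284 rose (2.72%) and 431 fell (4.14%). The mean of the 2 effects was called for 2626 genes (25.2%). A called difference was classed as dampened when the effect was larger in vehicle and called there, as enhanced when it was larger with TGFB1 and called there, and as reversed when the effects were called with opposite signs. Of the 57 genes, 42 were dampened, 11 enhanced and 4 reversed. A gene with a called mean effect and no called difference was classed as additive when the 95% interval of its difference lay within 1.5-fold either way. This held for 2214 genes (21.2%), while 373 (3.58%) had a wider interval and were unresolved, and 7779 (74.6%) had no called HDAC1 effect. Additive thus means equal to within 1.5-fold and not identical: 265 of the 2214 genes had a difference at an unadjusted p under 0.05. That limit, 0.58 on the log2 scale, was larger than the median effect of genes called in vehicle (0.37 for rises, -0.34 for falls). A small effect called in vehicle and lost with TGFB1 could therefore still be classed as additive, as for Rps2 (0.24 in vehicle, 0.079 with TGFB1). When the effect had to be called in either treatment, 1630 genes were additive. Called differences ranged in size from 0.38 to 1.31 on the log2 scale, and 5 of them were at least 1. Nearest to the limit of 5 CPM were Hic2 (5.001 CPM, difference 0.042) and Slc25a35 (5.001 CPM, difference -0.066) inside it and C10h16orf90 (4.998 CPM, difference -0.35) and Hist1h2ac (4.999 CPM, difference -0.20) outside it.

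The number of calls rested on single libraries. It was 58 without the vehicle empty vector replicate 1 (0.556%), 11 without replicate 2 and 160 without replicate 3 of that group. Without the HDAC1 vehicle replicates 1 and 3 it was 17 and 7, and without the TGFB1 empty vector replicate 1 it was 29. Without the HDAC1 libraries with TGFB1 in turn it was 4, 24 and 2. In each of these fits, and in the other 3 that left out a library, all 57 genes kept the sign of their difference. The genes were chosen for a large difference on these same libraries, so the sign could hardly change and is no independent support. A single gene of the 57 was called in 2 to 12 of these 12 fits, with a median of 5, and 22 genes were called in at least 6. A fit with the summed heart and brain transcripts of each library as a covariate called 0 genes. It had 560 of 10423 genes at an unadjusted p under 0.05, against 1236 (11.9%) in the fit without it. Genes with no difference reach such a p at a rate of 0.05, so the 560 are not a count of genes that differed. This covariate itself had a difference of HDAC1 effects of -1.59 on the log2 scale, since all 3 HDAC1 libraries with TGFB1 were low in it, so the transcripts and the group cannot be told apart there.

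**Figure D1:**
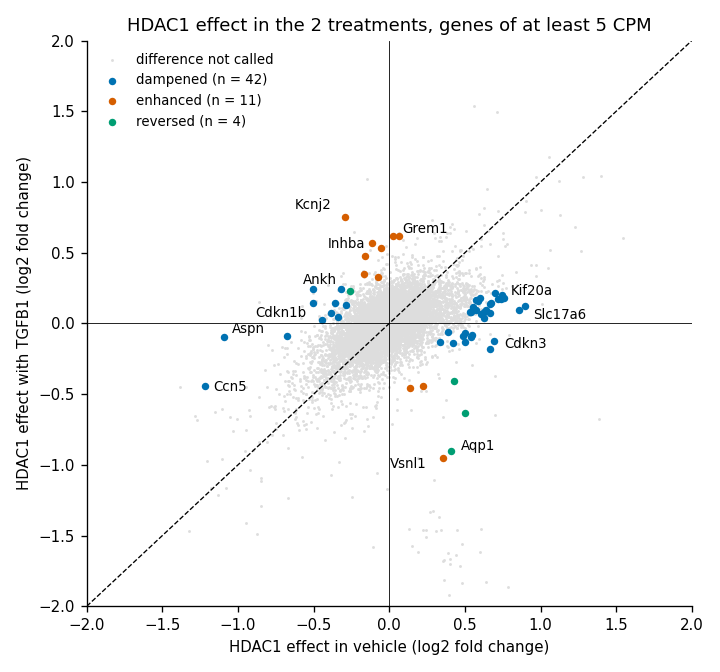
HDAC1 effect in vehicle (x axis) against the HDAC1 effect with TGFB1 (y axis), both as log2 fold changes, 1 point per gene of at least 5 CPM. The dashed line marks equal effects, the 42 dampened, 11 enhanced and 4 reversed genes are coloured, and 7 genes beyond 2 on either axis are not drawn. Most dampened genes lie right of 0 on the x axis and near 0 on the y axis.

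The targeted gene was read first. Hdac1 (ENSRNOG00000009568) read 212, 205 and 212 CPM with empty vector and 428, 375 and 460.4 CPM with HDAC1 in vehicle. With TGFB1 it read 259, 250.2 and 290.4 CPM and 501, 416 and 474 CPM. The HDAC1 libraries were above the empty vector libraries without overlap in each treatment, and p = 0.1 in the two-sided exact permutation test of each is the least that groups of 3 can reach. The rise was 2.01-fold in vehicle and 1.74-fold with TGFB1, and the difference of -0.21 ± 0.24 (95% interval, edgeR adjusted p = 0.463) placed the gene among the additive ones. Hdac1l (ENSRNOG00000013695), whose name marks it as Hdac1-like, read 0.5301, 15.1 and 9.23 CPM and then 1297, 852 and 1367 CPM in vehicle, and 8.09, 8.65 and 11.2 CPM and then 1211, 802 and 1256 CPM with TGFB1. Its difference was -0.30 ± 1.94 (95% interval, edgeR adjusted p = 0.931), too wide to class, and 0.28 without the vehicle replicate 1, where the gene was lowest. How reads of the human sequence were divided between these copies is not given in the sources used here, so the levels are uncertain. Summed over Hdac1 and Hdac1l, the HDAC1 libraries were 7.31-fold above the empty vector libraries in vehicle and 5.63-fold with TGFB1. Replicate 2 had the least Hdac1l of the HDAC1 libraries in each treatment.

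The largest class was dampened rises, of which 11 were in the lists of mitosis and DNA replication genes, lists that hold 62 of the 10423 genes (0.595%). All 31 genes were raised by HDAC1 in vehicle, by 0.34 to 0.89 on the log2 scale (median 0.61), and none was called with TGFB1, where the effects ran from -0.18 to 0.21 (median 0.084). The median difference was -0.55. In all 31 genes the 3 vehicle empty vector libraries were the lowest of the 12, and TGFB1 raised all 31 in empty vector cells, with a median log2 fold change of 0.71 from libraries that the vehicle effect shares. The fibroblasts with HDAC1 alone, TGFB1 alone or both thus lay above the untreated vector cells in each of these genes. The genes were chosen on these 12 libraries, so these counts describe them. In bulk RNA, a change in the share of dividing cells and a change in these transcripts per cell cannot be told apart.

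Cdkn3 (ENSRNOG00000009785), a phosphatase that acts on cyclin-dependent kinases, had the smallest adjusted p of the genes read. It read 29.7, 26.8 and 32.8 CPM with empty vector and 50.2, 46.9 and 47.3 CPM with HDAC1 in vehicle. With TGFB1 it read 46.7, 45.1 and 50.9 CPM with empty vector and 39.8, 47.4 and 43.4 CPM with HDAC1. The vehicle groups did not overlap, whereas the TGFB1 groups did. HDAC1 raised Cdkn3 by 0.69 (SE 0.083) in vehicle, its effect with TGFB1 was -0.12 (SE 0.083), and the difference was -0.81 (SE 0.12, edgeR adjusted p = 0.00609). It was -0.79 without the vehicle empty vector replicate 1 (edgeR adjusted p = 0.0114), and Cdkn3 was the only 1 of the 57 genes called in all 12 fits that each left out 1 library.

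Kif20a (ENSRNOG00000024428), a kinesin needed for cytokinesis, read 84.1, 80.7 and 91.4 CPM with empty vector and 151, 137 and 139.6 CPM with HDAC1 in vehicle. Its TGFB1 libraries read 131, 141 and 130.0 CPM with empty vector and 147, 155 and 151 CPM with HDAC1. The groups did not overlap in either treatment, but the step was larger in vehicle. The effects were 0.74 (SE 0.065) and 0.18 (SE 0.064, edgeR adjusted p = 0.1), with a difference of -0.56 (SE 0.091, edgeR adjusted p = 0.0153) that was -0.53 without the vehicle empty vector replicate 1 (edgeR adjusted p = 0.0223). Cdca3, a trigger of mitotic entry, Ube2c, the ubiquitin-conjugating enzyme of the anaphase-promoting complex, and Spc24, a part of the kinetochore, had differences of -0.59, -0.59 and -0.63 and remained called without that replicate. Cenph, a centromere protein, Pclaf, a partner of the sliding clamp PCNA, and Cdc6, which licenses replication origins, had differences of -0.64, -0.58 and -0.44 (edgeR adjusted p = 0.0336, 0.0362 and 0.0418) that were not called without it (edgeR adjusted p = 0.0769, 0.0639 and 0.0944). E2f1, a transcription factor of the G1 to S transition that was named here after its values were seen, went from 30.4, 31.1 and 33.4 CPM to 44.04, 46.4 and 48.5 CPM in vehicle. With TGFB1 its groups overlapped, at 46.4, 45.7 and 50.1 CPM against 41.7, 44.3 and 48.3 CPM, and its difference was -0.63 (SE 0.10, edgeR adjusted p = 0.0167). The symbol is shared by 2 gene identifiers, so this one (ENSRNOG00000072439) was not counted in any list and its level is uncertain.

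Not all dampened rises were cell cycle genes. Slc17a6 (ENSRNOG00000016147), a vesicular glutamate transporter, read 8.39, 10.02 and 8.91 CPM with empty vector and 18.04, 16.1 and 16.4 CPM with HDAC1 in vehicle, and 23.7, 21.9 and 27.4 CPM and 29.1, 26.6 and 24.1 CPM with TGFB1. Its TGFB1 libraries were the highest of the 12 whether or not HDAC1 was present, and the difference was -0.77 (SE 0.15, edgeR adjusted p = 0.0262). Vwa1, an extracellular matrix protein, went from 11.2, 9.28 and 10.9 CPM to 18.1, 15.7 and 16.2 CPM in vehicle, with 18.8, 15.9 and 20.3 CPM and 14.3, 18.8 and 15.2 CPM under TGFB1 (difference -0.85, edgeR adjusted p = 0.0279). Rgs2, a regulator of G protein signalling, rose by 0.86 in vehicle from 3.62, 4.93 and 4.76 CPM, while TGFB1 with empty vector held it at 19.4, 21.6 and 23.7 CPM. Its difference of -0.77 (edgeR adjusted p = 0.0337) was not called without the vehicle replicate 1 (-0.62, edgeR adjusted p = 0.0819), the library in which Rgs2 was lowest. Of all 31 dampened rises, 15 were still called without that library, all of them as dampened.

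Promoters are shown for the 4 dampened rises with the smallest adjusted p whose window held both motifs searched. The windows run from 250 bases before to 50 after the annotated start, 5′ to 3′ in the direction of the gene, and come from RefSeq (GRCr8). Capitals mark a CCAAT box (CCAAT) or the cell cycle homology element known as CHR (TTTGAA), each searched on both strands, so that ATTGG and TTCAAA are the same motifs on the other strand. Cdkn3 lies at chr15:22502136-22502435 (plus strand), Kif22, a chromosome-arm kinesin, at chr1:191080829-191081128 (minus strand), Cdc20, the activator of the anaphase-promoting complex, at chr5:137255750-137256049 (minus strand), and Ccnb2, cyclin B2, at chr8:79981609-79981908 (minus strand).
Cdkn3: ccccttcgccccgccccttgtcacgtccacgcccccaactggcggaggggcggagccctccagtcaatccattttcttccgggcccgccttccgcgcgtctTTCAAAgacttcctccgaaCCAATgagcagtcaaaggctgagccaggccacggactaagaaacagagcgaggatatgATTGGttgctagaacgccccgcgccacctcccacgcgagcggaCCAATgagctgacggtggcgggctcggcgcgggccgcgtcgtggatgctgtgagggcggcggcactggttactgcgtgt
Kif22: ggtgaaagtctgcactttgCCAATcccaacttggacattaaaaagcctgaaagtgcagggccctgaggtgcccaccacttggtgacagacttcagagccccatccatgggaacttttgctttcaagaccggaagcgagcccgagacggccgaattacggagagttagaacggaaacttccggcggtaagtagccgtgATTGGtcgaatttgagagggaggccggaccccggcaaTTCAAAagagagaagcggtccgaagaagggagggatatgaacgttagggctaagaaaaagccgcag
Cdc20: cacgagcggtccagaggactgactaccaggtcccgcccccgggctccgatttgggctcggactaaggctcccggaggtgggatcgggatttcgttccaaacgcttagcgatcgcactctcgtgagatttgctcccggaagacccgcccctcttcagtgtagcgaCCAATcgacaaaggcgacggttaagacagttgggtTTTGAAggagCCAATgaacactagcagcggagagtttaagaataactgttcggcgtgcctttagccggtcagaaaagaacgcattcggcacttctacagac
Ccnb2: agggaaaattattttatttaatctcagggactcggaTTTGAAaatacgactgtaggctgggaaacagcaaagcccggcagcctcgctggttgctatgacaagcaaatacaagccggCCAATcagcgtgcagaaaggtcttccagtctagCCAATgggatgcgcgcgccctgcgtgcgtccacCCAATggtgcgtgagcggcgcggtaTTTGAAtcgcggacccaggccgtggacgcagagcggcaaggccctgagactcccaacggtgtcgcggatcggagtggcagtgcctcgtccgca

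A promoter window was found for 26 of the 31 dampened rises. A CCAAT box was present in 18 of them (69.23%), a CHR element in 12 (46.15%) and both in 9 (34.62%). Among the 8364 genes of at least 5 CPM with a window the shares were 38.45%, 11.33% and 4.735%, and among all 33469 windows of that length they were 37.49%, 18.35% and 7.41%. Of 8 dampened falls with a window, 2 held a CCAAT box and 0 a CHR element, and of 10 enhanced genes 7 held a CCAAT box and 0 a CHR element. For the 27 mitosis genes with a window, 21 held a CCAAT box, 18 a CHR element and 15 both. These are matches of letters, which were not tested as binding sites. Kif22, Cdc20 and Ccnb2 had differences of -0.46, -0.58 and -0.54 (edgeR adjusted p = 0.0262, 0.0287 and 0.0301), and that of Ccnb2 was not called without the vehicle replicate 1 (edgeR adjusted p = 0.0586).

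Dampened falls numbered 11 and included matrix genes, a cell cycle inhibitor and ligands of the TGF-beta family. Aspn (ENSRNOG00000015410), asporin, a small leucine-rich proteoglycan of the matrix, read 78.3, 84.97 and 61.9 CPM with empty vector and 33.2, 41.2 and 30.9 CPM with HDAC1 in vehicle. Under TGFB1 the values were 65.7, 67.5 and 72.4 CPM and 69.96, 62.9 and 60.1 CPM. The vehicle HDAC1 libraries were thus the lowest 3 of the 12, and the TGFB1 groups overlapped. HDAC1 lowered Aspn by a log2 fold change of -1.09 (SE 0.11) in vehicle and the change was -0.093 (SE 0.11) with TGFB1, a difference of 1.00 (SE 0.16, edgeR adjusted p = 0.018). It was 0.99 without the vehicle empty vector replicate 1 (edgeR adjusted p = 0.0201).

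Ccn5 (ENSRNOG00000010666), a matricellular protein of the CCN family, went from 89.6, 92.8 and 75.4 CPM with empty vector to 32.02, 44.7 and 34.2 CPM with HDAC1 in vehicle. With TGFB1 it went from 33.4, 35.1 and 37.5 CPM to 23.3, 27.4 and 26.8 CPM. It was the only dampened gene called in both treatments, with effects of -1.22 and -0.45 and a difference of 0.77 (SE 0.16, edgeR adjusted p = 0.0336). TGFB1 alone brought it to the level that HDAC1 alone gave, and the cells with both were lowest. Aspn was called in 10 of the 12 fits that left out 1 library and Ccn5 in 3. Adamts12, a secreted metalloprotease, was higher with the cytokine: it read 37.8, 41.9 and 37.9 CPM and 25.1, 25.2 and 22.9 CPM in vehicle and 119, 105 and 96.5 CPM and 97.8, 105 and 98.6 CPM with TGFB1 (difference 0.59, edgeR adjusted p = 0.0262).

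Cdkn1b (ENSRNOG00000007249), the cyclin-dependent kinase inhibitor p27, had the opposite order of groups to the dampened rises. Its values were 179, 174 and 163 CPM with empty vector and 118, 129 and 132 CPM with HDAC1 in vehicle. Values with TGFB1 were 102, 111 and 99.5 CPM and 103, 107 and 108 CPM. The vehicle empty vector libraries were the highest of the 12, and the TGFB1 groups overlapped. HDAC1 changed it by -0.45 (SE 0.064) in vehicle and by 0.025 (SE 0.065) with TGFB1, a difference of 0.47 (SE 0.091, edgeR adjusted p = 0.0262). It was called in 5 of the 12 fits that left out 1 library. For Cdkn1a, the inhibitor p21, the effects were 0.064 and -0.014 and the difference -0.078 ± 0.19 (95% interval, edgeR adjusted p = 0.777), and neither an HDAC1 effect nor a difference was called.

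Among ligands, Inhbb, the beta B subunit of activin, read 29.9, 27.03 and 26.6 CPM and 17.7, 21.1 and 20.3 CPM in vehicle and 7.19, 7.404 and 7.44 CPM and 8.06, 8.21 and 8.08 CPM with TGFB1, and Tgfb3 read 135, 125 and 121 CPM and 98.2, 98.7 and 104 CPM in vehicle and 266, 263 and 267 CPM and 267, 279.9 and 273 CPM with TGFB1. TGFB1 lowered the first and raised the second, and in each the HDAC1 fall was called in vehicle and not with the cytokine. Their differences of 0.65 and 0.38 (edgeR adjusted p = 0.0337 and 0.0399) were not called without the vehicle replicate 1 (edgeR adjusted p = 0.0562 and 0.0743). Cxcl10, an interferon-induced chemokine, fell from 1577, 1715 and 1459.6 CPM to 1328, 1245 and 1241 CPM in vehicle. With TGFB1 it lay at 281, 325 and 299 CPM and 389.7, 331 and 352 CPM, with the HDAC1 libraries higher, an effect of 0.24 that was not called (edgeR adjusted p = 0.0586). Its difference was 0.56 (SE 0.11, edgeR adjusted p = 0.0262), and without the vehicle replicate 1 it was called in both treatments and classed as reversed. Myo6, an unconventional myosin, Kdsr, an enzyme of sphingolipid synthesis, and Mtmr3, a phosphoinositide phosphatase named after its values were seen, had differences of 0.50, 0.46 and 0.41 and remained dampened without that library. The last dampened fall, ENSRNOG00000077721, has no symbol.

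**Figure D2:**
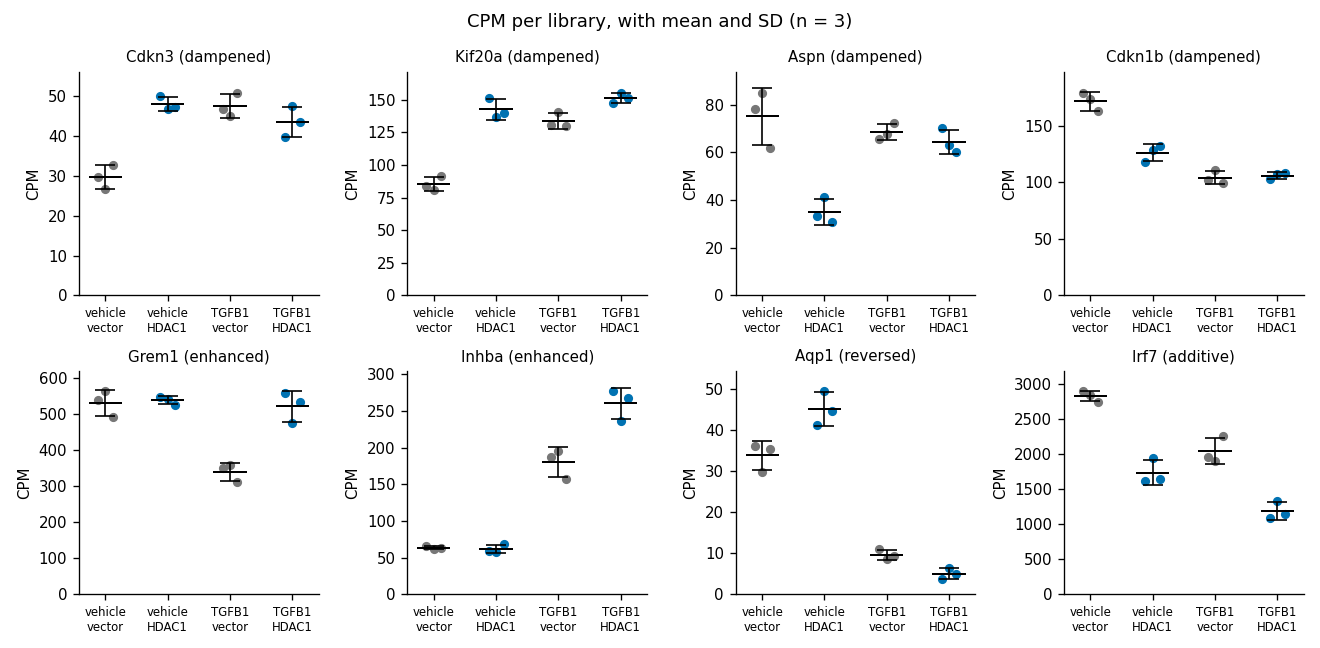
CPM of 8 genes in each of the 12 libraries (points), with the mean and SD of each group of 3 (black lines); grey points are empty vector libraries and blue points HDAC1 libraries, and each y axis starts at 0. Cdkn3 and Kif20a are lowest in the vehicle empty vector group, Cdkn1b is highest there, and Irf7 shows a step of like size in both treatments.

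Of the 11 enhanced genes, 8 rose and 3 fell with HDAC1 under TGFB1, and none was called in vehicle. Inhba (ENSRNOG00000014320), the beta A subunit of activin, read 65.8, 61.9 and 63.3 CPM with empty vector and 58.4, 57.9 and 67.8 CPM with HDAC1 in vehicle, where the groups overlapped. It read 187, 195 and 157 CPM and 276, 237 and 268 CPM with TGFB1, where every HDAC1 library was higher. The effects were -0.055 (SE 0.085) and 0.53 (SE 0.081), a difference of 0.59 (SE 0.12, edgeR adjusted p = 0.029). TGFB1 alone had raised it, and the cells with both agents were highest of all.

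Grem1 (ENSRNOG00000026053), gremlin, an extracellular antagonist of BMP ligands, went the other way with the cytokine. It stood at 539, 563 and 491 CPM with empty vector and 548, 543 and 526 CPM with HDAC1 in vehicle. TGFB1 took the empty vector cells to 351, 358 and 312 CPM, and the HDAC1 cells read 557, 475 and 533 CPM, near the vehicle values. The HDAC1 effect with TGFB1 was 0.62 (SE 0.073) and the difference 0.59 (SE 0.10, edgeR adjusted p = 0.0195). Wnt5a, a ligand of the non-canonical Wnt pathway, had a like order: 58.5, 56.9 and 48.9 CPM and 44.6, 50.8 and 51.7 CPM in vehicle, and 30.3, 31.9 and 29.03 CPM and 42.8, 40.98 and 43.6 CPM with TGFB1, with a difference of 0.64 (SE 0.11, edgeR adjusted p = 0.0219). Of the 12 fits that left out 1 library, Wnt5a was called in 10, Grem1 in 9 and Inhba in 7.

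Glul, glutamine synthetase, read 182, 182 and 186 CPM and 171, 177 and 174 CPM in vehicle against 249, 266 and 248 CPM and 322, 323 and 312 CPM with TGFB1, and its difference was 0.40 (SE 0.079, edgeR adjusted p = 0.0279). It too was called without the vehicle replicate 1, but in only 5 of the 12 fits that left out 1 library. Kcnj2, an inward rectifier potassium channel, had a difference of 1.04 (edgeR adjusted p = 0.0385) at low levels, between 1.74 CPM with TGFB1 and empty vector and 9.28 CPM in vehicle. Kcnj2, Plet1, a cell surface protein, and Tshz1, a zinc finger protein, were not called without that replicate (edgeR adjusted p = 0.0611, 0.0789 and 0.0611). The remaining enhanced rise, ENSRNOG00000074286, has no symbol.

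The 3 enhanced falls were Vsnl1, Anxa8 and Ckb. Anxa8, an annexin, read 25.1, 21.3 and 27.5 CPM and 28.6, 31.03 and 27.1 CPM in vehicle and 64.3, 61.9 and 71.7 CPM and 46.6, 50.6 and 48.2 CPM with TGFB1, so that the HDAC1 libraries with TGFB1 lay between the vehicle libraries and those with TGFB1 alone (difference -0.67 (SE 0.12, edgeR adjusted p = 0.0262)). Ckb, brain creatine kinase, had a difference of -0.59 that was not called without the vehicle replicate 1 (edgeR adjusted p = 0.101). Vsnl1, a neuronal calcium sensor that belongs to the brain list, read 5.12, 6.47 and 6.73 CPM and 7.87, 7.04 and 8.57 CPM in vehicle and 6.102, 6.68 and 7.34 CPM and 4.19, 2.88 and 3.44 CPM with TGFB1. Its difference was -1.31 (SE 0.22, edgeR adjusted p = 0.0167) and -1.18 without the vehicle empty vector replicate 1 (edgeR adjusted p = 0.0223). Summed brain markers were low in the same HDAC1 libraries with TGFB1 (158 to 164 CPM), and their part in the Vsnl1 and Ckb results was not tested.

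4 genes were called with opposite signs, and Aqp1 had the largest called difference. Aqp1 (ENSRNOG00000011648), a water channel of the kidney tubule and of many other cells, read 36.1, 29.8 and 35.4 CPM with empty vector and 41.1, 49.3 and 44.6 CPM with HDAC1 in vehicle. TGFB1 lowered it to 10.98, 8.65 and 9.23 CPM, and to 3.697, 6.42 and 4.99 CPM with HDAC1. HDAC1 libraries were thus higher without overlap in vehicle and lower without overlap with TGFB1. The effects were 0.41 (SE 0.12, edgeR adjusted p = 0.0217) and -0.91 (SE 0.16, edgeR adjusted p = 0.00224), and the difference was -1.31 (SE 0.19, edgeR adjusted p = 0.00971). It was -1.35 without the vehicle empty vector replicate 1 (edgeR adjusted p = 0.0092), and the gene remained reversed there. It was called in 11 of the 12 fits that left out 1 library.

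Ankh, an exporter of ATP and pyrophosphate, fell from 138, 137 and 127 CPM to 104, 122 and 108 CPM in vehicle and rose from 612, 583 and 565 CPM to 662, 689 and 715 CPM with TGFB1, without overlap in either. Its difference was 0.49 (SE 0.096, edgeR adjusted p = 0.0262). Dnajc6, auxilin, which uncoats clathrin vesicles in neurons, read 4.11, 5.301 and 5.83 CPM and 6.66, 7.24 and 7.83 CPM in vehicle, and 6.55, 7.96 and 6.15 CPM and 4.41, 4.01 and 4.95 CPM with TGFB1. The muscle enolase Eno3, which is in the heart list, read 16.8, 22.00 and 24.97 CPM and 26.4, 30.8 and 29.1 CPM in vehicle, and 23.7, 20.1 and 20.5 CPM and 16.2, 14.98 and 17.4 CPM with TGFB1. Both had their lowest vehicle value in the empty vector replicate 1, where the summed heart markers were 105 CPM against 457 and 488 CPM in the other 2, and the part of these transcripts in the result was not tested. The differences of Dnajc6 and Eno3 were -1.14 and -0.84 (edgeR adjusted p = 0.0262 and 0.0287). Without that replicate the differences of Ankh, Dnajc6 and Eno3 were 0.49, -0.98 and -0.67 and still called, but each was then classed as enhanced because its vehicle effect was no longer called. Over the 12 fits that left out 1 library, Dnajc6 was called in 7, Ankh in 6 and Eno3 in 4. Opposite signs of the 2 effects, called or not, were found in 31 of the 57 genes, 18 of them dampened and 9 enhanced. A choice for a large difference favours opposite signs, and the share over all genes is not given here, so this count only describes the 57.

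Additive genes were 1000 rises and 1214 falls. The named ones are those with the smallest adjusted p of the mean effect. Irf7 (ENSRNOG00000017414), a transcription factor of the interferon response, read 2897, 2852 and 2748 CPM with empty vector and 1612, 1951 and 1653 CPM with HDAC1 in vehicle. With TGFB1 it read 1967, 1908 and 2259 CPM and 1086, 1326 and 1143 CPM. The groups did not overlap in either treatment, the effects were -0.70 and -0.79, and their difference was -0.083 ± 0.25 (95% interval, edgeR adjusted p = 0.835). Loxl3, a lysyl oxidase, had effects of -0.57 and -0.69, the elastic fibre protein Fbln5 of -0.66 and -0.44, the complement protease C1r of -0.78 and -0.58, the matrix protein Ccdc80 of -0.80 and -0.59, and the mitochondrial kinase Pink1 of -0.64 and -0.52, all falls.

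On the rising side, Ifnb1 (ENSRNOG00000006268), interferon beta, went from 5.65, 6.202 and 5.29 CPM to 13.5, 11.1 and 10.7 CPM in vehicle and from 4.66, 5.65 and 6.25 CPM to 14.1, 11.8 and 11.7 CPM with TGFB1. Its difference was 0.12 ± 0.39 (95% interval, edgeR adjusted p = 0.842). Csf2, the cytokine GM-CSF, had effects of 1.12 and 1.01, Tfrc, the transferrin receptor, of 0.65 and 0.95, Ifit3, an interferon-induced antiviral protein, of 0.47 and 0.52, and Mt-atp8, a mitochondrially encoded subunit of ATP synthase, of 0.41 and 0.51. Csf2 and Tfrc became unresolved without the vehicle replicate 1, since their intervals then passed 1.5-fold. Without it 1754 genes were additive, 1653 of them in common with the 2214, and the split turned from 1000 rises and 1214 falls to 996 and 758.

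Some genes of the fibrotic programme were named whatever their class. Of these, Ccn2, Col1a1, Acta2 and Tgfb1 were additive and Col3a1 and Fn1 had no called HDAC1 effect, whereas the matrix genes Aspn and Ccn5 and the ligand Tgfb3, described above, were dampened. Additive rests on the called mean effect, and among these additive genes only Ccn2 was called in both treatments. Col1a1 was called in vehicle only, Acta2 with TGFB1 only (2.83 to 4.08 CPM in vehicle) and Tgfb1 in neither. Ccn2, a matricellular protein induced by TGFB1, read 302, 327 and 235 CPM and 202, 181 and 184 CPM in vehicle and 1199, 985 and 1266 CPM and 680.2, 740.3 and 699 CPM with TGFB1. HDAC1 lowered it in each, with effects of -0.61 and -0.70, with a difference of -0.094 ± 0.32 (95% interval). Col1a1, which encodes a chain of type I collagen, had effects of -0.62 and -0.47 and a difference of 0.15 ± 0.43. The smooth muscle actin Acta2 had -0.26 and -0.41 with -0.16 ± 0.39, and Tgfb1 itself -0.11 and -0.23 with -0.12 ± 0.21. Tgfb1 lost its called mean effect without the vehicle replicate 1. For Col3a1 and Fn1, fibrillar collagen and fibronectin, no HDAC1 effect was called in either treatment, and the differences were -0.14 ± 0.64 and 0.20 ± 0.30. Mmp13, a collagenase, was the nearest of the unresolved genes named here to a call: it read 16.3, 17.1 and 16.8 CPM and 26.3, 23.2 and 24.4 CPM in vehicle and 9.85, 13.3 and 8.14 CPM and 37.9, 25.3 and 28.7 CPM with TGFB1, a difference of 0.97 (SE 0.21, edgeR adjusted p = 0.0554).

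Gene lists were read by counts and medians. Over all 10423 genes the median HDAC1 effect was -0.02 in vehicle and 0.01 with TGFB1, the median difference was 0.02, and 44.3% of the differences were below 0. The counts of each list stand against shares over all genes of 8.21% rising and 9.67% falling in vehicle, 2.72% and 4.14% with TGFB1, 0.547% with a called difference, 11.9% with a difference at an unadjusted p under 0.05, 21.2% additive and 74.6% with no called HDAC1 effect. In the mitosis list, of kinases, kinesins and checkpoint proteins of cell division, all 31 members rose in vehicle and 9 rose with TGFB1. All 31 differences were below 0, 10 of them called, and the list's medians were 0.54 in vehicle, 0.17 with TGFB1 and -0.37 for the difference (-0.34 without the vehicle replicate 1, where 5 were called). No mitosis gene was called as enhanced or reversed, and 18 were additive in the sense used here, all with a difference below 0. DNA replication genes followed the same order, with 26 of 31 rising in vehicle, 3 with TGFB1 and medians of 0.38, 0.11 and -0.27. All 31 replication differences were below 0, and 1, that of Cdc6, was called.

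Cholesterol synthesis genes had medians of 0.24 in vehicle, 0.001 with TGFB1 and -0.22 for the difference, with 10 of 27 rising in vehicle and 0 with TGFB1, 24 differences below 0 and 0 called (7 at an unadjusted p under 0.05). Interferon-stimulated genes were mostly additive: 29 of 42 fell in vehicle and 25 with TGFB1, 30 were additive, and the medians were -0.28 and -0.28 with a difference of 0.01. None of the 42 differences was called by edgeR, and 6 had an unadjusted p under 0.05. Genes for collagen processing, which hydroxylate, cut and crosslink collagen chains, were also largely additive, 19 of 23, with medians of -0.26 and -0.23. Collagens fell in 9 of 15 cases in vehicle and in 3 with TGFB1 (medians -0.29 and -0.15), with 0 called differences and 4 at an unadjusted p under 0.05. Of 8 complement and acute-phase genes 7 fell in vehicle and 6 with TGFB1 (9.67% and 4.14% of all genes), and the list's medians were -0.74 and -0.59.

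Mitochondrially encoded genes rose in 10 of 13 cases in vehicle and in 8 with TGFB1, with medians of 0.30 and 0.37 and 10 members additive. In the list of the TGF-beta pathway and its feedback, the called differences were those of Inhba and Tgfb3, 2 of 29, and 20 members had no called HDAC1 effect, near the 74.6% of all genes. NF-kB targets and inflammatory mediators had 1 called difference of 27, that of Cxcl10, and medians of 0.09 and 0.18. No HDAC1 effect was called for 24 of 25 ribosomal protein genes and for 22 of 29 HDACs and subunits of HDAC1 complexes, the second near the share over all genes, and the median differences were -0.031 and -0.0093. Contractile genes had 0 called differences of 17, with 2 at an unadjusted p under 0.05, about the 11.9% of all genes. Without the vehicle replicate 1, 1 contractile gene was called, Des, which encodes the muscle filament protein desmin, is also in the heart list and was named after its values were seen. Heart and brain markers had the lowest medians of any list, -1.85 over 18 heart genes and -1.31 over 11 brain genes, and these were -1.40 and -1.18 without the vehicle replicate 1.

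**Figure D3:**
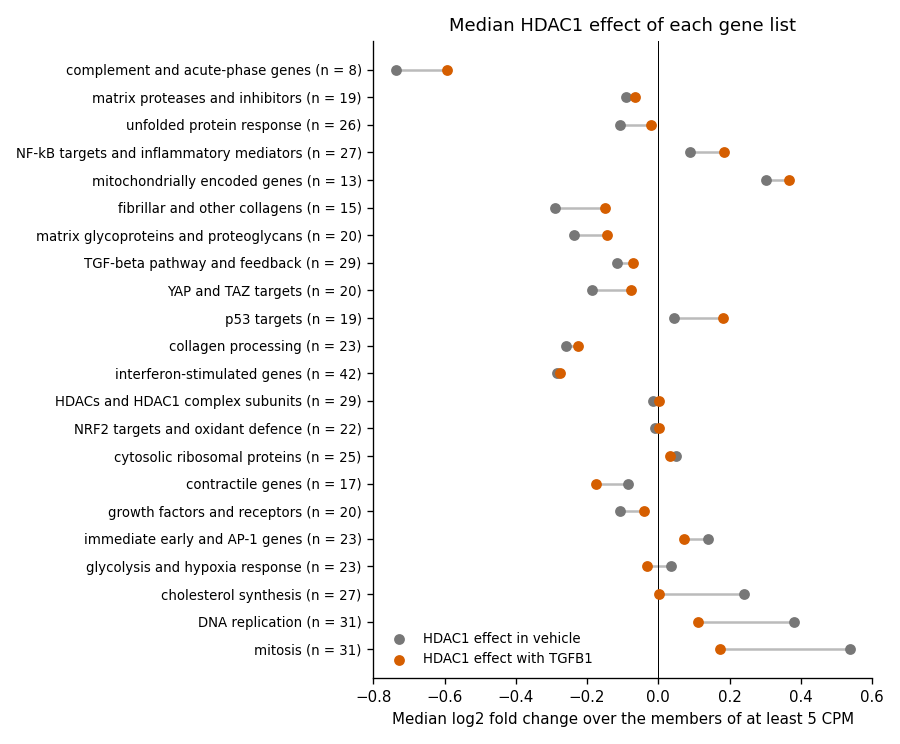
Median HDAC1 effect (log2 fold change, x axis) in vehicle (grey) and with TGFB1 (orange) over the members of each pathway list with at least 5 CPM (y axis, number of members in brackets), ordered by the median difference. The mitosis list moves from 0.54 to 0.17, whereas the points of the interferon-stimulated genes coincide at -0.28.

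The effects in vehicle and with TGFB1 share no library, so genes chosen on one can be read in the other. Of the 856 genes that rose with HDAC1 in vehicle, 766 (89.5%) had an effect of the same sign with TGFB1. With TGFB1, 141 were also called as rises and 3 as falls, where 2.72% and 4.14% of all genes were called. Their median went from 0.37 in vehicle to 0.14 with TGFB1. Of the 1008 that fell, 914 (90.7%) kept the sign, 280 were called again and 1 was called the other way, and the median went from -0.34 to -0.18. The share of all genes with the same sign in both treatments is not given here, so these sign counts only describe the genes chosen. Chosen on the TGFB1 libraries, the 284 rises had a median of 0.31 there and 0.24 in vehicle, and the 431 falls -0.40 and -0.34. A value read in the libraries that chose it is inflated by the choice, in either direction. The medians without the vehicle replicate 1 were 0.41 and 0.17 for 616 rises in vehicle and -0.39 and -0.22 for 530 falls, against 0.31 and 0.22 for 427 rises and -0.42 and -0.32 for 409 falls with TGFB1. Across the 10423 genes, which are not independent replicates, the 2 effects had Pearson's r = 0.513 and Spearman's rho = 0.541. Both effects were called with the same sign for 421 genes and with opposite signs for 4.

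Leaving out the vehicle empty vector replicate 1 kept the number of calls and changed their makeup. Of the 58 genes then called, 35 were among the 57, 22 were lost and 23 were gained. All 22 lost genes kept the sign, which their choice on the same libraries favours. Dampened genes went from 42 to 24 and reversed genes from 4 to 2, while enhanced genes went from 11 to 31. Of the 23 gained genes, 22 had a lower HDAC1 effect with TGFB1, 18 were low in the library left out (under 0.5 times the lower of the other 2 of its group), and 9 belonged to the heart or brain lists. Cdc34, a ubiquitin-conjugating enzyme of the cell cycle that was named after its values were seen, was the 1 gained gene classed as dampened, with a difference of -0.59 that became -0.65. None of the 57 genes was among the 37 that were low in that library, and 2, Vsnl1 and Eno3, were in the heart or brain lists.

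**Figure D4:**
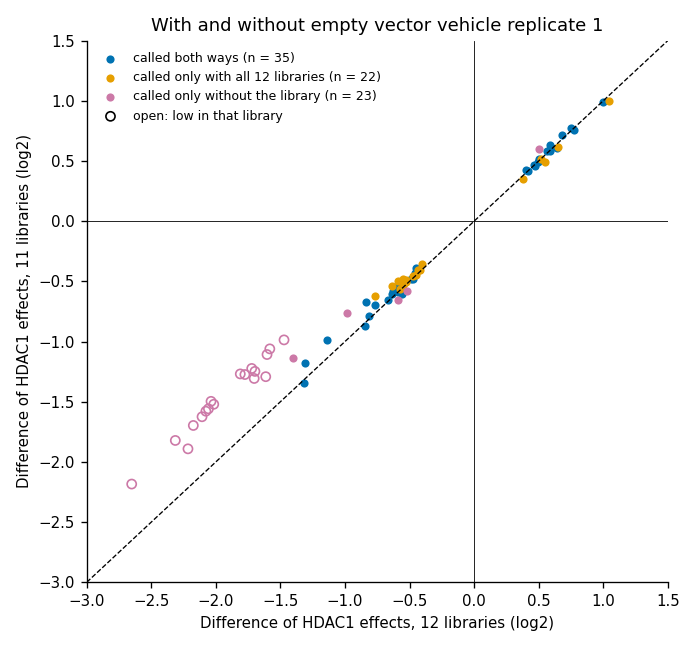
Difference of HDAC1 effects (log2) with all 12 libraries (x axis) and with 11, leaving out the vehicle empty vector replicate 1 (y axis), for 35 genes called both ways, 22 called only with all libraries and 23 called only without that library. The dashed line marks equal values, and open points are genes low in that library, which lie at the lower left.

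**Figure D5:**
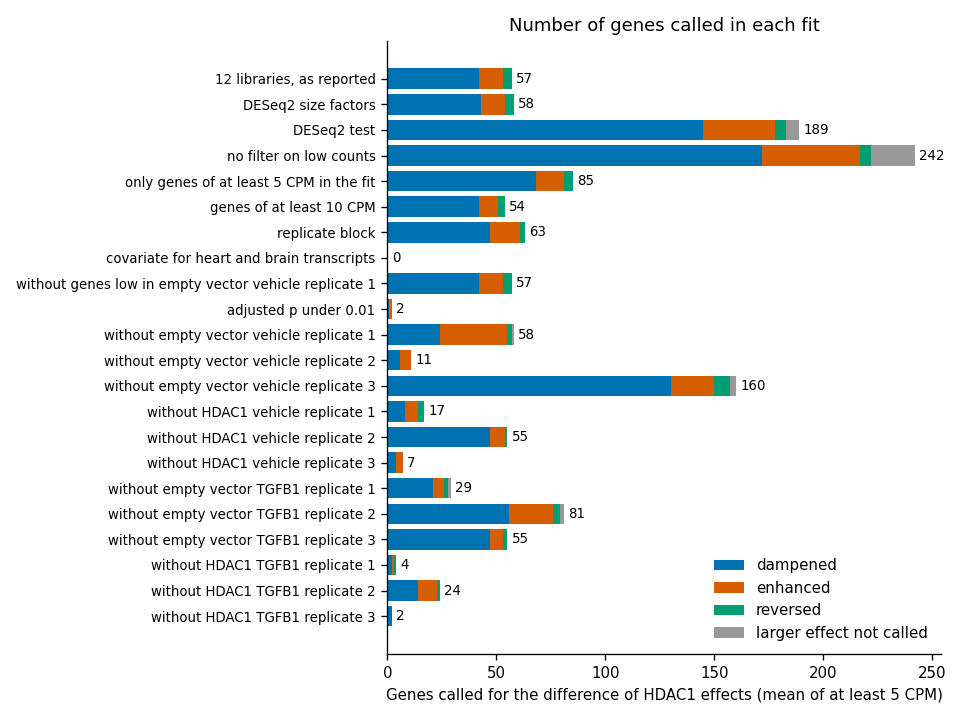
Number of genes called for the difference of HDAC1 effects (x axis, with the total printed) in each fit (y axis), split into dampened, enhanced and reversed genes and those whose larger effect was not called. Totals run from 0 with the covariate for heart and brain transcripts to 242 with no filter on low counts, and dampened genes are the most frequent class in most fits.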

How the data were processed

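Poly(A) RNA was sequenced in 12 libraries of NRK-49F cells. The authors deposited raw counts per gene, and a normalized signal that equals the deposited counts divided by 1 constant per library and keeps 14275 genes; the counts were used for every test. The tools listed in the submitters' processing notes are Trim Galore 0.6.7 for trimming, featureCounts of Subread 2.0.1 for counting and DESeq2 1.44. The build listed is mm10, whereas the identifiers are rat Ensembl genes; the aligner and the strand setting are not given in the sources used here. Sample titles set the groups, because the treatment field is numbered from TGFB1 to TGFB6 and the design text has all cells treated. Symbols came from the deposited normalized table; 326 of the genes read had none.

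Here, genes were filtered with filterByExpr of edgeR 4.0.16 (R 4.3.3) and scaled with TMM, and a robust quasi-likelihood model with 1 mean per group was fitted to all 12 libraries (8 residual degrees of freedom, common biological coefficient of variation 7.61%). P-values were two-sided and adjusted by Benjamini and Hochberg over 14601 genes; SEs are the log2 fold change divided by the square root of F. Between 99.88% and 99.94% of the counts of a library fell on tested genes, and the median 95% half-interval of a difference was 0.24, which sets the precision of the additive class. The scripts were tested on simulated data. The fit was repeated with size factors of DESeq2, with the Wald test of DESeq2 1.42.0, without a filter, on genes of at least 5 CPM only, with a floor of 10 CPM, an adjusted p under 0.01, other interval widths, a replicate block, a covariate of summed heart and brain markers, and leaving out each library. The genes, classes, lists of pathway and cell type markers and the naming rule were chosen with earlier results of these data known. Named were Hdac1, Hdac1l and 8 genes of fibrosis and arrest; per class and direction, up to 6 called genes that kept the class without the vehicle empty vector replicate 1 and 3 that did not, by size; the 6 additive genes each way with the smallest adjusted p; and up to 3 members per list. Some of the genes this rule names are not reported here. Promoter windows (RefSeq, GRCr8) were matched by Ensembl identifier where RefSeq gave one and otherwise by symbol, and searched for letters only.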

Additional observations from a re-analysis of the deposited data

Results flagged for a closer look

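The HDAC1 effect differed between vehicle and TGFB1 by a test of the difference itself in 57 genes. Among them, 4 had effects called with opposite signs in the treatments. The difference was -1.31 for Aqp1, -1.14 for Dnajc6, -0.84 for Eno3 and 0.49 for Ankh on the log2 scale. Without the vehicle empty vector replicate 1 only Aqp1 kept opposite signs called in both treatments.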

How the results depend on the processing

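In each alternative fit, all of the 57 genes it held kept the sign of their difference, and so did the difference on the linear CPM scale (57 of 57). The fits reuse the libraries that chose the genes, so the kept sign is no independent support. The number of calls did not hold: it was 189 with the test of DESeq2 (145 dampened, 33 enhanced), 242 with no filter on low counts (172 and 45), 85 when genes under 5 CPM were left out of the fit (68 dampened), and 2 at an adjusted p under 0.01 (1 dampened, 1 enhanced, 0 reversed and 1189 additive). With the covariate for heart and brain transcripts it was 0 (0 dampened, 0 enhanced, 0 reversed, 1172 additive). The cause was not tested. All 57 genes were among the 189 and the 242. DESeq2 size factors gave 58, with a median shift of 0.0072, and a floor of 10 CPM gave 54. Additive genes numbered 933 with an interval within 0.32 either way on the log2 scale, 2560 within 2-fold and 1630 when the effect had to be called in either treatment. Leaving out 1 library at a time gave 2 to 160 calls, 2 to 130 dampened, 0 to 31 enhanced, 0 to 7 reversed and 1637 to 2439 additive genes. Genes called in vehicle with the same sign under TGFB1 numbered 1680, and 1066 without the vehicle empty vector replicate 1. These fits leave 2 libraries in a group, assumed to vary like the others. Of the named genes' values under all alternatives, 1330 kept their status, whether called or not called, 11 gained a call, 274 lost one and 0 reversed. The replicate block gave 63 calls (47 dampened, 14 enhanced, 2 reversed and 1936 additive). Same-numbered libraries had correlations of -0.39 to 0.38, over 0.1 in 4 of 18 pairs, and 3 of 12 libraries correlated best with their own number, so the numbers do not show a pairing.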
